A study of Mus musculus with 47 samples.

Results

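The proteasome is the large protease that breaks down proteins tagged with ubiquitin in the cytosol and nucleus. Its barrel-shaped core particle is built of alpha and beta rings, the beta rings carrying the active sites, and a regulatory particle of a base and a lid recognises, unfolds and feeds in the tagged substrates. Other caps, inhibitors and assembly chaperones act on the same core, and inducible beta subunits replace the constitutive ones in immune cells and after interferon signalling. In the small intestine, dividing cells sit in the crypts and mature absorptive enterocytes line the villi.

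The genes examined here were those whose symbol begins with Psma, Psmb, Psmc, Psmd, Psme or Psmf followed by a number, leaving out the interferon-inducible Psmb8 and Psmb9. A probe set, the array's unit of measurement for a transcript, was a member when the platform annotation gave it 1 such symbol. This rule took 92 of the 45101 probe sets, for 43 of the 18193 genes that such probe sets name. It read symbols and no measured value. The Psme2 probe set carried 2 symbols and was therefore no member. Psmc3ip and Psme3ip1 were taken by the pattern although neither encodes a proteasome subunit.

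Expression was measured on 47 Affymetrix 3′ arrays of total RNA from small intestinal crypts and villi of C57BL/6 mice. In the genetic arm the mice were wild type, Apc1638N/+ (1 copy of the tumour suppressor gene Apc altered) or p21-/- (lacking the cyclin-dependent kinase inhibitor p21, encoded by Cdkn1a), all fed the diet labelled Ain76A. The age label of these mice reads 3 months, while the treatment text counts the same time on the diet from weaning, so their exact age is uncertain and "3 months" below stands for the label. In the dietary arm all mice were wild type, were assigned at random to Ain76A, NWD1 or NWD2 after weaning, and were 1 year old. Each of the 12 groups held 4 arrays, except the villi on NWD2 with 3. The labels do not say that replicates came from separate animals, so the p-values measure the spread between these samples, which may be technical.

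Of the 92 member probe sets, 85 had a value on at least 1 array and 54 on all 47. Of the members, 58 probe sets of 40 genes passed the filter on low values, which asked for a value above the array's median on at least 3 arrays. The filter kept 14 core genes, 17 regulatory particle genes and 3 genes each of the base assembly chaperones and the other activators, with Psmb10, Psmf1 and Psme3ip1. Just outside the filter lay probe sets of Psmb1, Psma3 and Psme4 with 1 array above the median and one of Psmd13 with 2. Just inside lay a Psma6 probe set with 11 such arrays and those of Psmd9, Psme3 and Psmf1 with 23, 31 and 33. Psmb11, a thymic beta subunit, had no value on any array, and Psma8, an alpha subunit of the testis, had values on 4 arrays, all below the filter.

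Promoter sequences show which short motifs lie in front of members whose expression is described below. Sequences came from RefSeq on build GRCm38.p6 and covered 250 bases before the annotated start, and 36 of the 43 genes were matched. The searched motifs were TGACNNNGC, the antioxidant response type bound by Nfe2l1 and Nfe2l2, CCAAT, bound by NF-Y, CCGGAAG, bound by Ets factors, and the palindrome bound by nuclear respiratory factor. Both strands were read, and 0 matches overlapped. The Ets motif CCGGAAG stood in 12 of 36 member promoters, or 33.3%, against 7.83% of the promoters of all 27025 genes. CCAAT stood in 15, or 41.7%, against 37.5%, TGACNNNGC in 5, or 13.9%, against 11.5%, and the palindrome in 1, or 2.78%, against 0.877%. These are letter matches and no measurement of binding. The 4 promoters below are those of Psmb3, a beta ring subunit with the largest crypt-villus difference among members, Psmb6, a catalytic beta subunit, Psmd12, the lid subunit that moved most closely with the rest, and Psme4, the activator with the opposite direction. Capitals mark motif matches: CCAAT in Psmb3, TGACNNNGC in Psmb6, both TGACNNNGC (on the opposite strand) and CCGGAAG (on the opposite strand) in Psmd12, and CCGGAAG in Psme4.
Psmb3, chr11:97703184-97703433, plus strand: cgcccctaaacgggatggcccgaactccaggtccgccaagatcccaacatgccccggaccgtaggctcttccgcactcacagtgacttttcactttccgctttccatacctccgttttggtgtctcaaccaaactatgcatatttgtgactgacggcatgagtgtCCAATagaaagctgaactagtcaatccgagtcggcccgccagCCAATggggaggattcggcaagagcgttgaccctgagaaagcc
Psmb6, chr11:70525107-70525356, plus strand: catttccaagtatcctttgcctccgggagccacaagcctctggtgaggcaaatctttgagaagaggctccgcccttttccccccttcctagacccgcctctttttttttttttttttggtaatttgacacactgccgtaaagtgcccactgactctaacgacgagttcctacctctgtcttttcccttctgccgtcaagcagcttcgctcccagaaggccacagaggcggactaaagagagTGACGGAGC
Psmd12, chr11:107479278-107479527, plus strand: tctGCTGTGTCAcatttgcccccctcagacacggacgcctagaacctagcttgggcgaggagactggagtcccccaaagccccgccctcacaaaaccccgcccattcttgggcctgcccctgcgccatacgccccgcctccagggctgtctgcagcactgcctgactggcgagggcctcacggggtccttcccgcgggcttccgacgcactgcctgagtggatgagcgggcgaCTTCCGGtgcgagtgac
Psme4, chr11:30771525-30771774, plus strand: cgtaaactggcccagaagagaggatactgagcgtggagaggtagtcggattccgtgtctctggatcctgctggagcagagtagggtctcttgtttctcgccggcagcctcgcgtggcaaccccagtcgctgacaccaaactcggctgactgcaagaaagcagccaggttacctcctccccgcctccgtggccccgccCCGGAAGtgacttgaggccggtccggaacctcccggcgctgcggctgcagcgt

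The tissue labels and the arrays were examined before any comparison. Crypts exceeded villi for 11 of 11 tested crypt proliferation markers (median log2 difference 2.55) and 3 of 3 Paneth cell markers (3.66), and 17 of 19 enterocyte markers were lower in crypts (-1.43). A marker score, the mean deviation of 8 proliferation genes minus that of 19 enterocyte genes, placed 6 arrays towards the other tissue, with crypt arrays below 1 or villus arrays above -1. Crypt wild-type arrays 2 and 4 scored 0.92 and 0.84 beside 3.0 and 1.82 for arrays 1 and 3. Crypt NWD2 arrays 2, 3 and 4 scored 0.54, -0.21 and 0.77 beside 1.96 for array 1, and villus NWD2 array 1 scored -0.76 beside -2.82 and -2.63. Some results that rest on these arrays are given without all 6, which leaves 1 NWD2 crypt array that is assumed to vary like the other groups. Counts for NWD2 crypts are then not given. Some are also given without 4 of them, NWD2 crypt arrays 2 and 4 being kept. Both choices were made after the data were seen. Of the probe sets for Cdkn1a, the gene absent in p21-/- mice, 1421679_a_at had values on all 8 wild-type arrays of the genetic arm, from 8.61 to 11.48, and was blank on all 8 p21-/- arrays. The other, 1424638_at, did not lose its signal. It read 12.47 ± 0.71 in wild-type and 11.7 ± 0.39 in p21-/- crypts, and 12.74 ± 0.25 in wild-type and 13.11 ± 0.29 in p21-/- villi (SD, n = 4 each), so its mean was the higher one in p21-/- villi. One probe set thus matches the genotype label. The other kept its signal, with a lower mean in p21-/- crypts and a higher one in p21-/- villi. Which part of the gene each reads was not examined here. The number of measured probe sets per array ranged from 14758 to 23296, and the median deposited log2 value from 8.76 to 9.58.

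The first question was whether proteasome genes differ between crypts and villi. Averaged over the 6 conditions, the core and regulatory particle genes were mostly higher in crypts. Of 55 member probe sets tested, 43 were higher and 3 lower (limma, adjusted p under 0.05), while 34.7% of all 10509 probe sets tested were higher and 40.4% were lower. The median log2 difference was 0.47 over the members and -0.06 over all probe sets. Taking 1 probe set per gene, 31 of 38 member genes were higher and 1 was lower, beside 2216 and 2454 of 6161 genes in all. In whole tissue RNA, more cells of a type and more RNA per cell cannot be told apart, and proliferation and enterocyte markers moved with the same contrast.

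**Figure D1:**
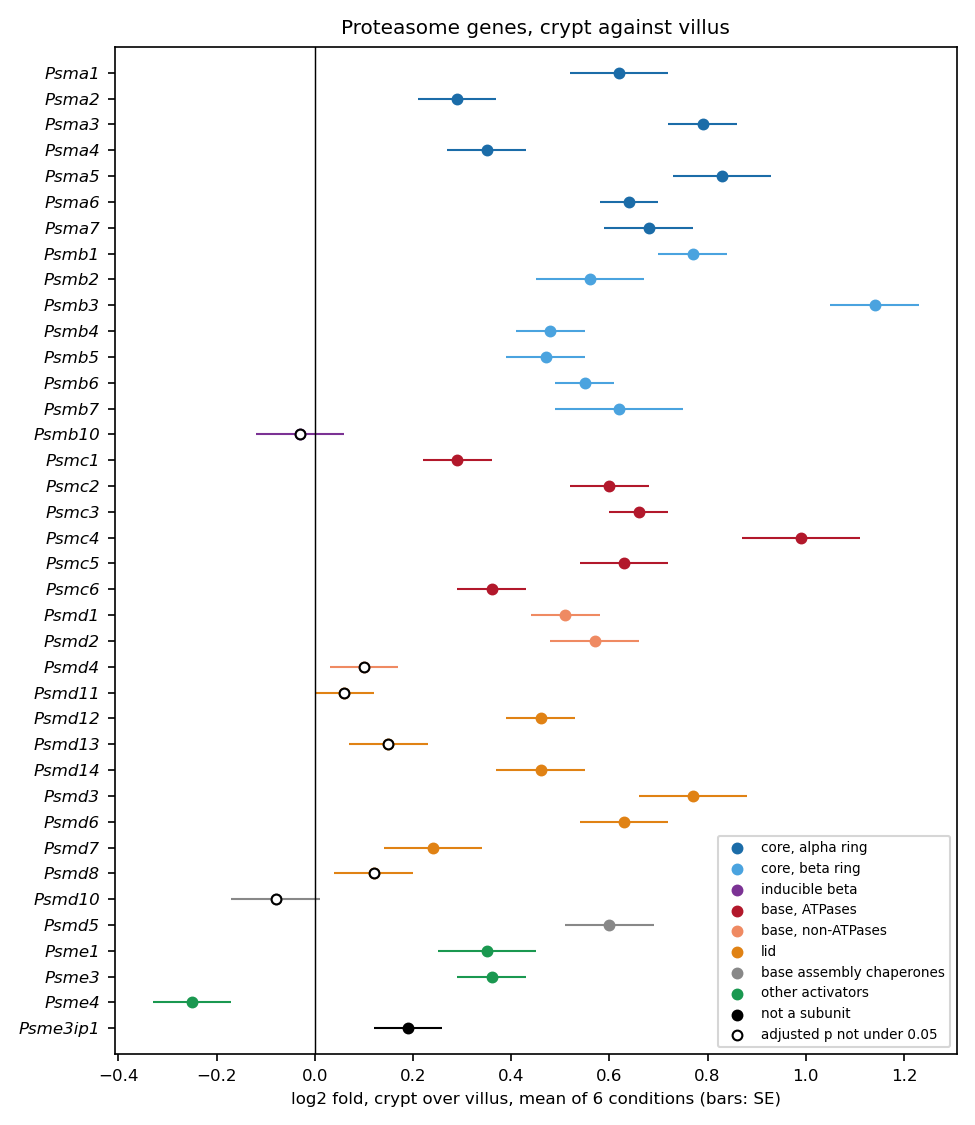
Log2 difference between crypts and villi, averaged over 6 conditions, for 38 member genes (1 probe set each), with bars of 1 SE and colours for the role in the complex. Filled points passed an adjusted p under 0.05: all 14 core genes and all 6 base ATPases lie to the right of 0, and Psme4 is the called gene to the left.

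All 7 alpha ring genes, whose products form the gated outer rings, were higher in crypts. Psma3 ranged from 12.72 to 13.55 on 24 crypt arrays (median 13.26) and from 12.07 to 13.09 on 23 villus arrays (median 12.38). In the 1-year Ain76A group its crypt arrays read 13.42, 13.53, 13.55 and 13.43 and its villus arrays 12.15, 12.07, 12.38 and 12.37. The tissues were fully separate there, and over all conditions their ranges shared the stretch from 12.72 to 13.09. The average difference of Psma3 was 0.79 ± 0.07 (SE, adjusted p = 6.85e-13). The other alpha genes ran from 0.29 for Psma2 to 0.83 for Psma5. The Psma6 probe set 1435317_x_at gave 0.01 ± 0.20 and was not called, while the other Psma6 probe sets gave 0.52 and 0.64.

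All 7 constitutive beta ring genes were higher in crypts as well. Psmb3, a structural beta subunit, read 12.89 to 13.27 on the 1-year Ain76A crypt arrays and 11.64 to 11.96 on the villus arrays of that group. In p21-/- mice the crypt arrays of Psmb3 read 13.82, 14.16, 13.97 and 13.44, above every other crypt group's mean, and the villus arrays 11.92, 12.25, 12.59 and 11.77. Crypts and villi did not overlap in either group. The average difference of Psmb3 was 1.14 ± 0.09 (SE, adjusted p = 4.75e-14) by its brighter probe set and 0.54 ± 0.11 by the other, 1417052_at. The subunits that carry the protease sites differed by 0.47 ± 0.08 for Psmb5, 0.55 ± 0.06 for Psmb6 and 0.62 ± 0.13 for Psmb7.

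Psmb10, the inducible subunit that stands in for Psmb7, did not separate the tissues. Its 24 crypt arrays ran from 11.71 to 13.19 (median 12.52) and its 23 villus arrays from 11.85 to 13.02 (median 12.53). The ranges coincided, and the average difference of Psmb10 was -0.03 ± 0.09 (adjusted p = 0.816, 95% interval -0.22 to 0.17). Its sign differed by arm. The difference was -0.09 in wild type at 3 months, -0.46 in Apc1638N/+ and -0.30 in p21-/- mice. On Ain76A at 1 year, NWD1 and NWD2 it was 0.04, 0.44 and 0.21, and none of these was called. Of the inducible subunits outside the rule, Psmb8 was lower in crypts by -1.02 ± 0.10 (adjusted p = 1.29e-11), and Psmb9 gave -0.12 ± 0.08 (adjusted p = 0.17). Interferon response genes, a list that itself holds Psmb8 and Psmb9, were lower in crypts in 10 of 12 cases, with a median of -1.09. Lymphocyte markers were lower in crypts in 3 of 3 cases (median -1.86), and in wild-type mice at 3 months in 8 of 8 (-3.07). They were lower in 6 of 6 in Apc1638N/+ (-3.45) and 3 of 3 in p21-/- mice (-3.93). On Ain76A at 1 year 4 of 7 were lower (-1.22), on NWD1 0 of 7 (-0.03) and on NWD2 0 of 6 (-0.02). The part of interferon genes or lymphocytes in the values of the inducible subunits was not tested.

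The 6 base ATPases, the ring that unfolds substrates, were all higher in crypts. Psmc3 read 12.30, 12.22, 12.13 and 12.12 on the 1-year Ain76A crypt arrays and 11.19, 11.12, 11.38 and 11.26 on the villus arrays. The lowest crypt array of Psmc3 lay above the highest villus array in 5 of 6 conditions, and in Apc1638N/+ mice the ranges, 11.11 to 12.02 and 10.90 to 11.29, overlapped. The average difference of Psmc3 was 0.66 ± 0.06 (SE, adjusted p = 3.75e-12). Psmc4 gave 0.99 ± 0.12 by one probe set and 0.17 ± 0.08 by the other, and Psmc2 gave 0.60 and 0.31, so their size depends on the probe set.

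Among the base subunits without ATPase activity, the scaffold genes Psmd1 and Psmd2 were higher in crypts. Psmd1 ranged from 11.09 to 11.99 on the crypt arrays (median 11.60) and from 10.63 to 11.52 on the villus arrays (median 11.05). These ranges overlapped, and the average difference was 0.51 ± 0.07 (adjusted p = 1.35e-08) for Psmd1 and 0.57 ± 0.09 for Psmd2. Psmd4, a ubiquitin receptor, was not called by either probe set, at 0.10 ± 0.07 and 0.00 ± 0.07. The larger Psmd4 value had a 95% interval of -0.04 to 0.24.

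The lid, which removes ubiquitin chains before degradation, was mixed, with 5 of 8 genes called higher. Psmd6 ranged from 11.77 to 12.91 on the crypt arrays (median 12.40) and from 11.18 to 12.25 on the villus arrays (median 11.59), and the upper villus arrays reached into the crypt range. Psmd6 (0.63 ± 0.09, adjusted p = 3.9e-08), Psmd3 (0.77 ± 0.11), Psmd12 (0.46 ± 0.07) and Psmd14, the deubiquitinase (0.46 ± 0.09), passed, and so did Psmd7, at 0.24 ± 0.10. Psmd8 (0.12 ± 0.08) and Psmd13 (0.15 ± 0.08 and 0.05 ± 0.10) did not. For Psmd11 the brightest of 4 probe sets gave 0.06 ± 0.06 and was not called, while the other 3 gave 0.21 to 0.56 and were called.

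The proteins that bind the core or help assembly split by gene. Psmd5, a chaperone of the base, had a median of 9.96 on the crypt arrays (9.19 to 10.53) and of 9.35 on the 21 villus arrays with a value (8.62 to 9.91), and was higher in crypts by 0.60 ± 0.09 (adjusted p = 1.36e-07). Psmd10, another such chaperone, had medians of 9.72 and 9.84 and gave -0.08 ± 0.09 (adjusted p = 0.417). The activator genes Psme1, which interferon is known to induce, and Psme3 were higher in crypts. Psme1 ran from 11.62 to 13.33 on the crypt arrays (median 12.90) and from 11.66 to 12.97 on the villus arrays (median 12.45), largely overlapping, and differed by 0.35 ± 0.10 (adjusted p = 0.00187). Psme3 had medians of 10.04 and 9.65 and differed by 0.36 ± 0.07 (adjusted p = 5.83e-06). Psme4, which encodes a nuclear activator, was lower: its 24 crypt arrays had a median of 11.51 and its 23 villus arrays one of 11.85. The ranges of Psme4, 11.15 to 12 and 10.92 to 12.14, overlapped widely, and the average difference was -0.25 ± 0.08 (adjusted p = 0.0034). On average all 3 tested Psme4 probe sets were called lower, from -0.27 to -0.25. By condition, 1 of 6 activator probe sets was called lower in wild type at 3 months, 2 of 6 in p21-/- mice and 0 in each other condition. Without 4 of the arrays named above 1 of the 3 lower member calls of the average was left, that of Psme4 1426823_s_at at -0.22 (adjusted p = 0.0191). Psme3ip1, no subunit, gave 0.19 ± 0.07 (adjusted p = 0.0236), and its call was lost without the same 4 (0.15, adjusted p = 0.0838) and without all 6 (0.16, adjusted p = 0.108). Psmd9, a chaperone, and the inhibitor Psmf1 were blank too often for the average; in the 1-year Ain76A group they gave 0.07 and 0.10, neither called.

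**Figure D2:**
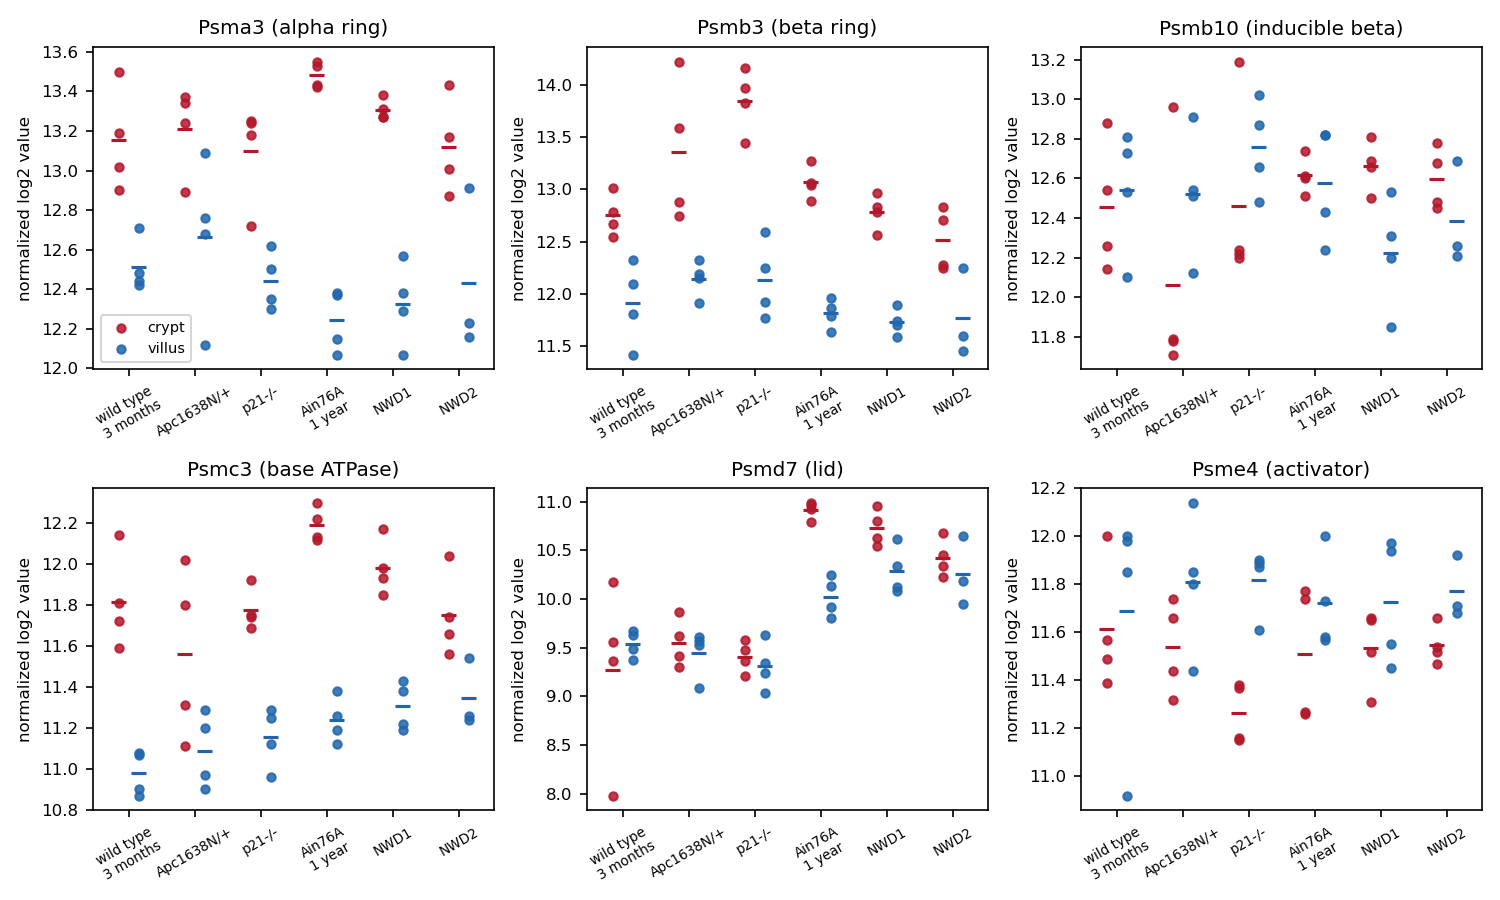
Normalized log2 value on each array for 6 member genes, crypts in red and villi in blue, with short lines at group means. Group means of Psma3, Psmb3 and Psmc3 are higher in crypts under each condition, Psmb10 shows no separation, Psmd7 group means are higher in the 1-year groups, and Psme4 means lie lower in crypts.

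The proteasome's partners outside the rule were mostly higher in crypts too. Of 14 partners tested from a list of 19, 12 were higher and 0 lower, with a median log2 difference of 0.54. Among them were the core assembly chaperone Psmg1 (1.36 ± 0.11), the lid subunit Sem1 (0.84 ± 0.07), the proteasome-bound deubiquitinase Usp14 (1.13 ± 0.13) and Zfand5 (0.77 ± 0.09). Ecpas (-0.02 ± 0.08) and the shuttle gene Ubqln1 (0.13 ± 0.09), named after their values were seen, did not pass. Of the ubiquitin and segregase genes, Vcp was higher (0.42 ± 0.07), Ufd1 lower (-0.36 ± 0.08), and Uba6 gave 0.01 ± 0.11. Of 8 genes tested that regulate proteasome genes, 1 was higher and 3 were lower. Nfe2l1, the main activator of proteasome genes when the proteasome is inhibited, gave 0.04 ± 0.07 (adjusted p = 0.631) and is named after its value was seen. Ngly1, whose product deglycosylates that factor, was lower by -0.43 ± 0.08, Nfe2l2 by -0.31 ± 0.08 and Stat3 by -1.27 ± 0.14, and Nfyb was higher by 0.25 ± 0.10.

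Condition by condition, the share of member probe sets higher in crypts varied widely. It was 16 of 56 in wild-type mice at 3 months (20.3% of all probe sets higher), 17 of 55 in Apc1638N/+ mice (21.2%) and 21 of 57 in p21-/- mice (23.5%). Lower in those conditions were 1, 1 and 2 member probe sets, beside 28%, 21% and 22.1% of all. In the dietary arm it was 41 of 58 on Ain76A (26.6%), 34 of 58 on NWD1 (22.3%) and 3 of 58 on NWD2 (8.78%). The members' median differences were 0.31, 0.28, 0.39, 0.78, 0.55 and 0.34 in that order. On Ain76A at 1 year, crypt and villus arrays did not overlap for 45 member probe sets, all higher in crypts, where 29.7% of all probe sets were separate in that direction. Leaving out crypt wild-type arrays 2 and 4 raised the 3-month wild-type count to 27 of 56. Leaving out 4 of the arrays named above raised the NWD2 count to 20 of 58. Without villus NWD2 array 1 alone it was 14, and without crypt NWD2 array 1 alone 0. Leaving out all 6 leaves 1 NWD2 crypt array, so no count is given. The count in Apc1638N/+ mice fell to 10 without crypt array 1. These counts are thus set in part by single arrays, and their difference between conditions was tested as described further on. The shares over all probe sets in the fits with arrays left out are not given here.

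**Figure D3:**
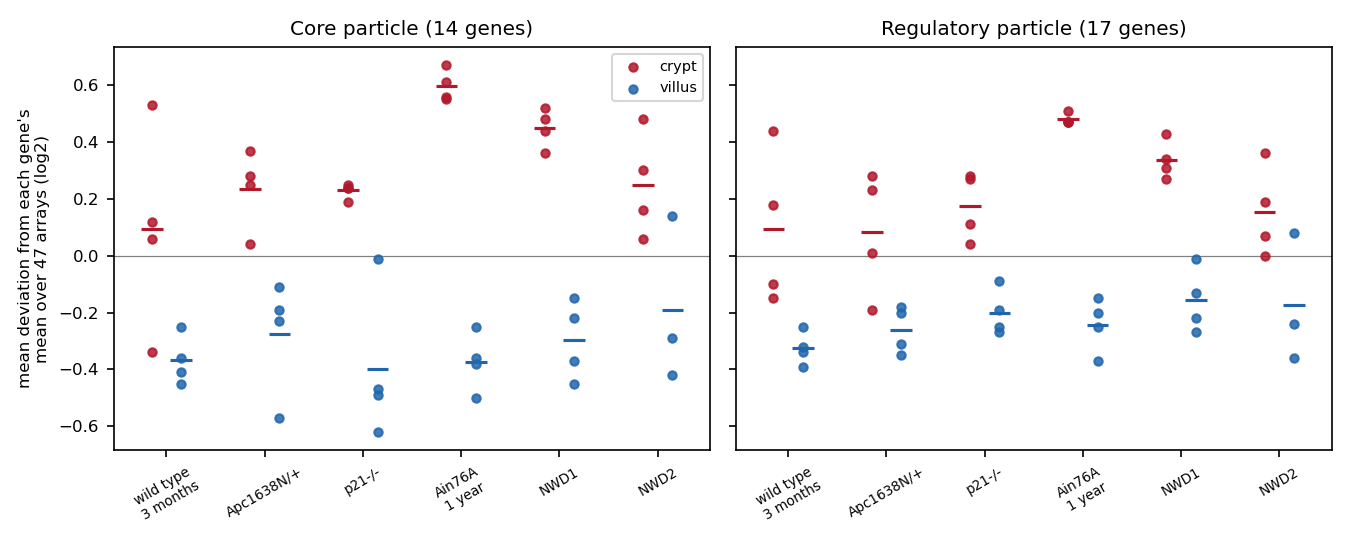
Mean deviation of 14 core genes (left) and 17 regulatory particle genes (right) from each gene's mean over 47 arrays, on the log2 scale, with 1 point per array and short lines at group means. Crypt Ain76A arrays at 1 year lie between 0.55 and 0.67 for the core, crypt wild-type arrays at 3 months spread from -0.34 to 0.53, and villus NWD2 array 1 lies at 0.14, above the other villus arrays.

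The core median exceeded the regulatory median for crypts against villi in each of the 6 conditions. Averaged over conditions the median difference was 0.62 over 14 core genes and 0.46 over 17 regulatory particle genes, a gap of 0.16, beside -0.03 over all genes tested. The gap was 0.13 in wild type, 0.23 in Apc1638N/+, 0.22 in p21-/-, 0.12 on Ain76A at 1 year, 0.18 on NWD1 and 0.10 on NWD2. The regulatory genes were not alike: on average the median was 0.61 for the 6 base ATPases, 0.51 for the 3 other base genes and 0.35 for the 8 lid genes. In the order above, the ATPase medians were 0.52, 0.49, 0.57, 0.85, 0.58 and 0.46. The core medians were 0.42, 0.53, 0.57, 1.01, 0.74 and 0.46. The core median moved from 0.42 in wild type at 3 months to 1.01 on Ain76A at 1 year, and the regulatory median from 0.29 to 0.89. Core genes lay between 0.29 and 1.14 on average and regulatory genes between 0.06 and 0.99, so the ranges overlapped, and the 4 lowest regulatory genes were Psmd4, Psmd8, Psmd11 and Psmd13, none of them called. Leaving out any single array kept the gap between 0.11 and 0.19. Over all member probe sets in place of 1 per gene the gap was larger, at 0.27, with medians of 0.62 over 20 core and 0.35 over 26 regulatory probe sets. In p21-/- mice it was 0.40 over all probe sets (0.57 and 0.17) beside 0.22.

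**Figure D4:**
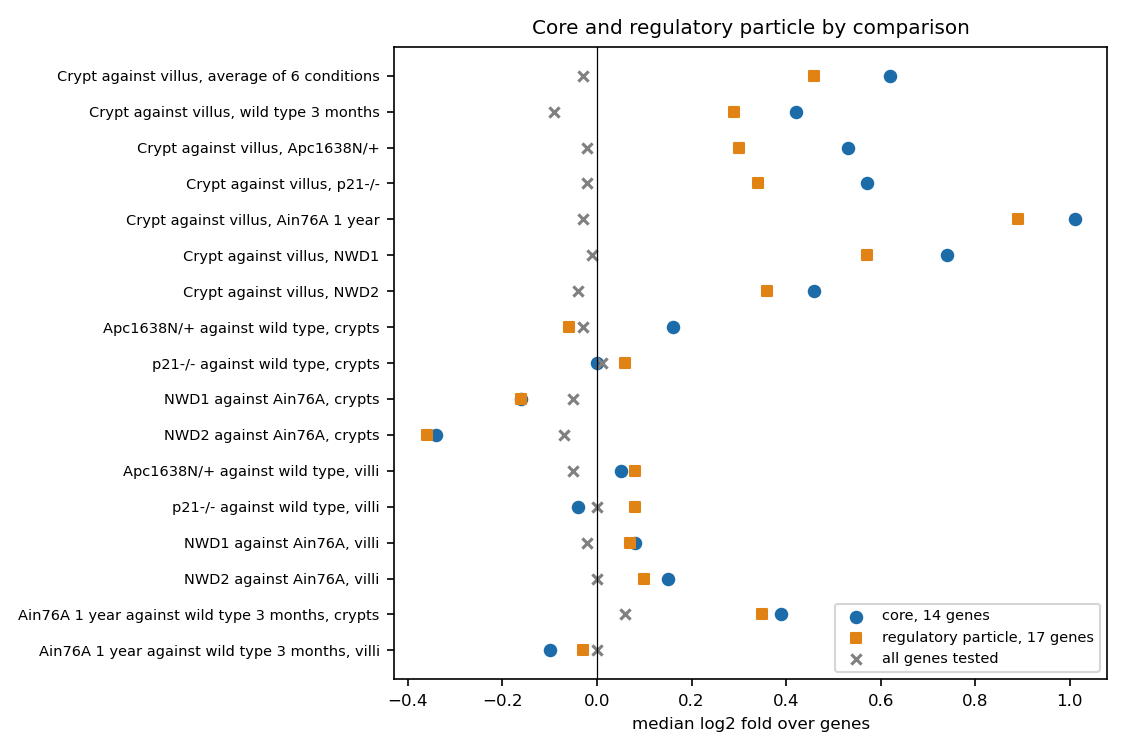
Median log2 difference over 14 core genes (circles), 17 regulatory particle genes (squares) and all genes tested (crosses) for 17 comparisons. Core and regulatory medians differ by at most 0.23, and both lie farthest from the median of all genes for crypts against villi on Ain76A at 1 year (1.01 and 0.89).

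Within groups, subunit genes varied together. After removal of group means, the mean deviations of core and regulatory genes had a Pearson r of 0.81 over 47 arrays, 0.84 over the 24 crypt arrays and 0.82 over the 23 villus arrays. These arrays share labelling, scaling and tissue mixture within each array, so r describes them and no test is given. The median r between pairs of genes was 0.39 for 91 core pairs, 0.25 for 136 regulatory pairs and 0.31 for 238 mixed pairs, beside -0.0 for pairs among 5049 genes measured on every array. Psmd12 had the highest median r with the other 30 subunit genes (0.51), followed by Psmb4 (0.49). Psmd4 (0.01) and Psmd13 (0.02), whose crypt-villus difference was not called, had the lowest. Psmb10 (0.06) and Psme1 (-0.1) showed little relation to the core.

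The same deviations ran with the tissue markers. The core's r was 0.59 with the proliferation genes and -0.7 with the enterocyte genes over the 24 crypt arrays, and 0.55 and -0.19 over the 23 villus arrays. For the regulatory genes the values were 0.7 and -0.71 in crypts and 0.73 and -0.42 in villi. Crypt wild-type array 2, with a core deviation of -0.34, and array 1, with 0.53, stood at the ends of their group for the core, and their marker scores were 0.92 and 3.0. Arrays 3 and 4 had core deviations of 0.12 and 0.06 and scores of 1.82 and 0.84, so the lowest score was that of array 4. The part of tissue mixture in this relation was not tested.

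**Figure D5:**
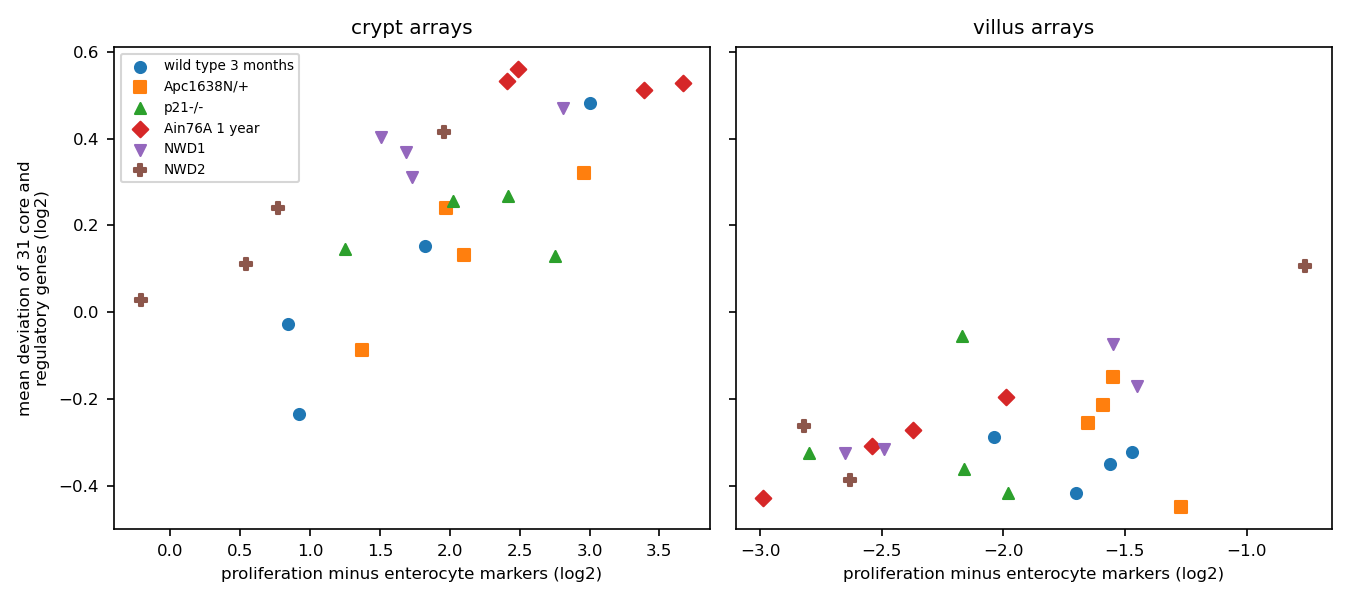
Mean deviation of the 31 core and regulatory genes against the marker score (proliferation minus enterocyte genes, log2), 1 point per array, with crypts on the left and villi on the right. The 4 Ain76A crypt arrays, with scores from 2.41 to 3.67, lie highest. The wild-type crypt arrays numbered 2 and 4 (0.92 and 0.84) and Apc1638N/+ crypt array 4 (1.37) lie below 0. Villus NWD2 array 1 (-0.76) lies above the other villus arrays.

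The second question was whether genotype changes proteasome genes within a tissue at 3 months. In Apc1638N/+ against wild-type crypts, 0 of 55 member probe sets were called (limma; 6 had an unadjusted p under 0.05), and 0.0957% of all probe sets were. Psmb3 1460198_a_at read 13.59, 14.22, 12.88 and 12.74 in Apc1638N/+ crypts against 12.54 to 13.01 in wild type. It came closest among higher values, at 0.61 ± 0.23 (adjusted p = 0.225), and Psmd1 among lower, at -0.35 ± 0.17 (adjusted p = 0.36). Without crypt Apc1638N/+ array 3 the count was 6 and Psmb3 passed, at 0.77 (adjusted p = 0.0339), and the share over all probe sets is not given. In p21-/- against wild-type crypts 1 of 57 member probe sets was called, beside 4.25% of all. This was Psmb3 1460198_a_at, which read 13.44 to 14.16 in p21-/- crypts and 12.54 to 13.01 in wild-type crypts, with no overlap. The difference was 1.10 ± 0.23 (SE, adjusted p = 0.00486), but the second Psmb3 probe set, 1417052_at, gave 0.30 ± 0.26 (adjusted p = 0.581). The call was lost when only those groups were fitted (adjusted p = 0.069) or when the number of measured probe sets was a covariate (0.77, adjusted p = 0.43). Beside it, p21-/- crypts had 3 of 7 Paneth markers higher (median 1.48) and 3 of 3 lymphocyte markers lower (-1.89), and their part in the Psmb3 value was not tested. In this comparison the members' median was 0.06 after normalization and -0.14 on the deposited scale, where all probe sets also moved to -0.14. In villi, 0 of 56 member probe sets were called for Apc1638N/+ (5 unadjusted) and 0 of 56 for p21-/- (2 unadjusted), beside 0% and 0.039% of all. Psmd3 in p21-/- villi read 9.87 to 10.67 against 8.94 to 10.07 in wild type, an overlapping difference of 0.72 ± 0.26 (adjusted p = 0.281). In Apc1638N/+ villi the nearest were Psma5 (0.51 ± 0.24, adjusted p = 0.948) and Psme3 (-0.38 ± 0.16, adjusted p = 0.939).

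The third question was whether diet changes them at 1 year. In crypts on NWD2 the members ran lower than on Ain76A, with a median of -0.28 beside -0.07 over all probe sets. Called lower were 2 of 58, beside 3.24% of all. Psma6 1437144_x_at read 13.40, 12.82, 12.62 and 13.08 on NWD2 and 13.49, 13.51, 13.56 and 13.51 on Ain76A, a difference of -0.54 ± 0.16 (SE, adjusted p = 0.0262). Psmd11 1456059_at read 10.99, 10.64, 10.61 and 11.05 on NWD2 and 11.33, 11.59, 11.76 and 11.32 on Ain76A, a difference of -0.68 ± 0.21 (SE, adjusted p = 0.0392). Neither pair of groups overlapped. Over the members, 25 of 58 probe sets had all NWD2 crypt arrays below all Ain76A crypt arrays, beside 16.1% of all probe sets. Other probe sets of both genes, at -0.28 for Psma6 1416506_at and -0.26 for Psmd11 1437080_s_at, were not called. The core median was -0.34 and the regulatory median -0.36, and of 16 partners outside the rule 2 were lower, with a median of -0.32. Beside this, NWD2 crypts had 13 of 19 enterocyte markers higher (median 1.30) and 6 of 18 proliferation markers lower (-1.10), and their marker scores ran from -0.21 to 1.96 against 2.41 to 3.67 on Ain76A. With the marker score as a covariate, 0 members were called and their median was -0.01, beside -0.02 over all probe sets. The score came from the same arrays and did not overlap between these diets, so this fit cannot tell diet from tissue mixture. The part of mixture was not tested. On the deposited scale 0 were called and the median was -0.06. In a fit of those crypts alone 17 were called, all lower, and the share over all probe sets in that fit is not given here. Without crypt NWD2 array 3, Psma6 (-0.42, adjusted p = 0.189) and Psmd11 (-0.61, adjusted p = 0.174) were not called. Without all 6 arrays named above, NWD2 crypt array 1 alone was left, and the members' median was -0.11, beside -0.05 over all probe sets. That array had the highest marker score of its group, and the score ran with the subunit genes. This fit thus cannot tell diet from tissue mixture either.

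On NWD1, crypts had 0 of 58 member probe sets called (1 unadjusted) and 0% of all, with a members' median of -0.13 beside -0.04 over all probe sets. Psmd13, a lid subunit, read 10.44 to 10.66 on NWD1 and 10.70 to 11.05 on Ain76A without overlap, but its difference of -0.33 ± 0.21 did not pass (adjusted p = 1). Psmd13 was not the only member without overlap there, and the share over all probe sets is not given here. In villi 0 of 58 were called on NWD1 and 0 of 58 on NWD2 (0 unadjusted in both), beside 0.0647% and 0.228% of all, with members' medians of 0.07 and 0.11. Psmd5 in NWD2 villi read 9.65, 9.58 and 9.60 against 9.07 to 9.43 on Ain76A, a difference of 0.43 ± 0.22 (adjusted p = 0.447).

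Ain76A-fed wild-type mice appear in both arms, at 3 months and at 1 year, but age and arm of the study cannot be told apart. In crypts 19 of 58 member probe sets were higher at 1 year and 0 lower, beside 9.29% of all higher, with a median of 0.41 against 0.07. For 18 of the 58 all 1-year arrays lay above all 3-month arrays, beside 11.2% of all probe sets. Psmd7, a lid subunit, read 10.97, 10.79, 10.92 and 10.99 at 1 year and 10.17, 7.98, 9.36 and 9.56 at 3 months. The groups did not overlap, array 2 of the younger group lay lowest, and the difference was 1.65 ± 0.24 (SE, adjusted p = 3.54e-05). Psmd11 1440253_at read 11.88 to 12.36 at 1 year and 10.06 to 11.09 at 3 months (1.47 ± 0.27, adjusted p = 0.000558). Psmb3 1417052_at read 11.94 to 12.16 and 10.08 to 11.47 (1.23 ± 0.26, adjusted p = 0.00196). The remaining leading calls were the ubiquitin receptor Psmd4 and the alpha ring gene Psma4. Psmd4 1425859_a_at read 11.34 to 11.43 and 10.41 to 10.78 (0.75 ± 0.16, adjusted p = 0.00215). Psma4 read 13.13 to 13.24 and 11.61 to 12.73 (0.89 ± 0.19, adjusted p = 0.00237), and none of these pairs of groups overlapped. Probe sets of a gene differed again, since the brighter Psmb3 probe set, 1460198_a_at, gave 0.32 ± 0.23 (adjusted p = 0.349) and Psmd11 1437080_s_at gave 0.33 ± 0.15 (adjusted p = 0.113). The brighter Psmd4 probe set, 1418874_a_at, was not called either. The count fell to 9 without crypt wild-type array 2 and rose to 28 without array 1. Without arrays 2 and 4 the count was 1, and Psmd7 kept its call, at 1.15 (adjusted p = 0.00536). The shares over all probe sets in these refits are not given here. With the marker score as a covariate 5 were called, and beside this 10 of 19 enterocyte markers were lower (median -0.82) and 4 of 18 proliferation markers higher (0.43) in the 1-year crypts. The part of tissue mixture in these values was not tested.

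In villi the same contrast gave 3 higher and 1 lower of 56 member probe sets, beside 7.41% and 8.74% of all. Psmc4 1416290_a_at read 11.95, 11.47, 12.07 and 12.02 at 1 year and 10.66, 10.66, 10.32 and 10.42 at 3 months, without overlap, and differed by 1.36 ± 0.30 (SE, adjusted p = 0.00206). The second Psmc4 probe set, 1416291_at, gave 0.21 ± 0.18 (adjusted p = 0.465). Psma6 1416506_at read 11.88 to 12.23 and 11.05 to 11.62 (0.75 ± 0.17, adjusted p = 0.00351), while the brighter Psma6 probe set, 1437144_x_at, was not called. Psma4 read 12.55 to 12.79 and 11.63 to 12.55, meeting at one value (0.62 ± 0.19, adjusted p = 0.0227). The base ATPase gene Psmc2 went the other way, with 1435859_x_at at 11.70 to 11.86 and 12.06 to 12.96 (-0.68 ± 0.20, adjusted p = 0.0166), and its other probe set, 1426611_at, gave -0.10 and was not called. Beside this, lymphocyte markers were lower at 1 year in 9 of 9 cases (median -2.63), and of 20 enterocyte markers 4 were higher and 1 lower (0.25). Their part in these values was not tested. On the deposited scale 11 were called, all higher, which changes the split from 3 to 1 into 11 to 0. The share over all probe sets on that scale is not given here.

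Whether the crypt-villus difference itself varied between conditions was tested as a difference of differences. For Apc1638N/+ and p21-/- against wild type, 0 of 55 and 0 of 56 member probe sets were called (0 and 6 unadjusted), beside 0% and 1.5% of all. For NWD1 and NWD2 against Ain76A, 0 of 58 were called in each (0 and 9 unadjusted), beside 0% and 0.175% of all, with members' medians of -0.21 and -0.42. Between Ain76A at 1 year and wild type at 3 months, 8 of 56 were called, all with a larger difference at 1 year, beside 5.61% of all in that direction. They were Psmd7 (1.16 ± 0.34, adjusted p = 0.0264), Psmd11 1456059_at (1.02 ± 0.30, adjusted p = 0.0271), Psmb2 (1.16 ± 0.36, adjusted p = 0.0344), Psma7 (0.91 ± 0.29, adjusted p = 0.0377, and 0.94 by a second probe set), Psmd14 (0.96 ± 0.31, adjusted p = 0.039), a second Psmd11 probe set (0.62) and Psme3 (0.67). Psmb2, a beta subunit without protease activity, read 11.34, 9.65, 11.46 and 10.06 on the 3-month crypt arrays and 11.09, 11.67, 11.64 and 11.60 on the 1-year ones. Its arrays 2 and 4 of the younger group lay more than a log2 unit below the other pair. Without those arrays 0 of the 8 calls were left, and Psmb2 gave 0.38 (adjusted p = 0.502). Without array 2 alone the count was 0, and without array 1 alone it was 15, with the shares over all probe sets not given here.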

How the data were processed

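Total RNA from crypts and villi was hybridised to 47 Affymetrix 3′ arrays. The values were deposited by the authors on a log2 scale and, per the submitters' processing notes, made with GCOS, with background and scaling steps not given in the sources used here. Of all values 55.3% were blank for a reason that no source states, so blanks were left missing. Genes were named from the platform annotation.

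After removal of 64 control probe sets the arrays' trimmed means differed by up to 1.461-fold (2% trimmed from each end, limit 1.2), and the log2 values were quantile normalized on the 8350 probe sets measured on every array, with monotone interpolation for the rest. Probe sets above their array's median on at least 3 arrays were kept (14937). A 1-way model over the 12 groups was fitted with limma 3.58.1 (R 4.3.3, eBayes with trend) to measured values, so a blank array drops out of that probe set's fit. A probe set was tested with at least 3 values in each compared group, and p-values were adjusted by Benjamini-Hochberg over all probe sets tested in a comparison, with calls under 0.05. A gene stands by its kept probe set of highest mean level. The number of arrays limits the precision. The fit was tested on simulated data. Tables used Python 3.11.15 with pandas 2.3.3 and numpy 2.4.6.

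Members and lists were chosen with earlier results of these data known. By the rule for naming, values are given for the member with the smallest p in each direction in each role group, for up to 5 called members per comparison, or the nearest where none was called, and for Psmb10 and Psme1; other genes are up to 4 per list by p. Of 23 crypt and villus arrays with the same replicate number, 16 pairs had deviations correlated above 0.1 (range -0.24 to 0.55), all 4 on Ain76A and all 3 on NWD2 among them. The labels do not say what the numbers mark, so whether they mark shared animals is unknown, and the results are from the fit without the replicate block. The highest correlation between any 2 arrays was 0.9889. Alternatives changed the scaling, the filter, the treatment of blanks, the probe set choice, the arrays and the groups fitted, and added covariates or a replicate block.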

Additional observations from a re-analysis of the deposited data

Results flagged for a closer look

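Single arrays stood far from the other 3 of their group in 19 of 344 groups tested, and chance alone gives about 1 in 20. In the villi these were Psme4 on wild-type array 4 (10.92) and p21-/- array 4 (11.61), Psmd1 on p21-/- array 3 (11.42), Psmd14 on wild-type array 4 (11.52) and Psma7 on NWD1 array 4 (11.45). Array 3 of the Apc1638N/+ villi was low for Psmd6 (11.32) and Psmd7 (9.09) and high for Psmd3 (10.79).

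In the crypts they were Psmd10 on wild-type array 1 (10.37), Psmd13 on NWD1 array 2 (10.44), Psmb2 on Ain76A array 1 (11.09) and Psmf1 on NWD2 array 2 (10.29). NWD2 array 1 stood apart for Psmd1 (11.67) and Psmd3 (10.84). Psmb10 stood apart on Apc1638N/+ array 3 (12.96) and p21-/- array 4 (13.19), and Psma3 on p21-/- array 4 (12.72). The core mean deviation on p21-/- array 4 was 0.19 and the regulatory one on Ain76A array 1 was 0.51.

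The crypt-villus difference was larger on Ain76A at 1 year than in wild type at 3 months by the interaction test for 8 probe sets. The log2 differences of differences were 1.16 for Psmd7, 1.02 and 0.62 for Psmd11, 1.16 for Psmb2, 0.91 and 0.94 for Psma7, 0.96 for Psmd14 and 0.67 for Psme3. None of these calls was left without wild-type crypt arrays 2 and 4, and age and study arm cannot be told apart.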

How the results depend on the processing

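Counts of called member probe sets are given here, without the shares over all probe sets under the same settings. A change in a count may thus not be particular to the members. With only the compared groups fitted, the crypt-villus count was 11 for wild type, 1 for Apc1638N/+ and 11 for p21-/- (17, 18 and 23 in the fit of all groups). That setting also gave 0 for p21-/- crypts, 17 for NWD2 crypts, 9 for crypts at 1 year against 3 months, 5 for the NWD2 interaction (all lower) and 2 for the interaction with age and arm. On the deposited scale the crypt-villus counts were 10 for Apc1638N/+, 11 for p21-/- and 20 for NWD1 (34 after normalization), with 0 for NWD2 crypts, 11 for villi at 1 year against 3 months and 0 for the age and arm interaction. That scale moved the median of all probe sets from -0.14 to 0.02 for wild-type crypts against villi and from -0.07 to 0.04 for NWD2 crypts. With the number of measured probe sets as a covariate, the counts were 0 for p21-/- crypts and 2 for villi at 1 year. For NWD2 crypts, no filter and 1 probe set per gene each gave 1, and the latter, testing fewer probe sets, gave 9 for crypts at 1 year. Without wild-type crypt arrays 2 and 4 the counts were 27 for wild-type crypts against villi, 1 for crypts at 1 year and 0 for the age and arm interaction. These arrays were set apart by their values and by no label. Chosen after seeing the data were the marker score covariate (0 for NWD2 crypts, 5 for crypts at 1 year) and leaving out wild-type crypt arrays 2 and 4, NWD2 crypt array 3 and NWD2 villus array 1 (20 for NWD2 crypts against villi, 0 for NWD2 crypts). Leaving out NWD2 crypt arrays 2 and 4 as well gave 26 for wild-type crypts against villi, 1 for crypts at 1 year and 0 for the age and arm interaction. It left 1 NWD2 crypt array, so no count is given for that group. These turned Psmb10 from -0.03 to 0.02 and 0.04, none called. All member probe sets, also chosen later, gave a core minus regulatory gap of 0.27. Where no cause is given, it was not tested.

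Leaving out 1 array at a time gave 43 to 46 for the average, 14 to 22 for wild type, 10 to 19 for Apc1638N/+, 17 to 26 for p21-/-, 38 to 41 for Ain76A, 26 to 33 for NWD1 and 0 to 14 for NWD2. Within crypts it gave 0 to 6 for Apc1638N/+, 1 to 3 for p21-/-, 0 to 3 for NWD2 and 9 to 28 for 1 year against 3 months. In villi at 1 year it gave 3 to 5. The interactions gave 0 to 1 for p21-/- and 0 to 15 for age and arm. It gave 0 throughout for NWD1 crypts, the 4 genotype and diet comparisons in villi and the other interactions. The core minus regulatory gap ran from 0.11 to 0.19.

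The replicate block, whose pairing the labels do not state, moved no count by over 1.5 times. It gave 46 for the average, 40 for Ain76A (41 without it) and 19 for crypts at 1 year. Over all named genes and alternatives, 1276 values kept their direction and side of the threshold, 98 lost the call, 2 gained it and 2 turned their sign.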
